A study of Mus musculus with 4 samples.

Results

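The immediate neuronal precursors (INP) of the adult mouse main olfactory epithelium were the 284 cells that carried the label INP in the deposited cell annotation, out of 15859 retained cells and 21809 cell barcodes. They came from 4 male C57BL/6 mice (C57BL/6J in the study's methods) aged 8 weeks, untreated and with no genetic change in the labels, and each mouse gave 1 droplet library (10x Genomics, counted at the 3′ end) of live nucleated cells sorted after papain dissociation. The mice formed 1 group and were the replicates (n = 4). INP were compared with their neighbours in the lineage, 202 globose basal cells (GBC) and 866 cells of the earlier cluster of immature olfactory sensory neurons (iOSN1).

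Olfactory sensory neurons (OSNs) are replaced throughout life. GBC, the dividing progenitors of the epithelium, give rise to INP, which express the proneural genes Neurog1 and Neurod1 and become immature OSNs that grow an axon. Each maturing neuron settles on the expression of a single odorant receptor gene out of a large family, and mature neurons (mOSN) are known by olfactory marker protein, Omp.

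The 4 mice gave 100, 38, 58 and 88 INP, which was 2.23%, 1.02%, 1.93% and 1.89% of their retained cells and 1.77% ± 0.519 (SD) on average. Among GBC, INP and iOSN1 cells, INP made up 23.5%, 12.8%, 23.8% and 22.7%. Mouse 2 was the lowest by either measure, and the 95% Wilson interval of its share among the 3 types (9.50 to 17.1%) did not reach those of the other mice. These intervals cover counting error only, and the shares are those of dissociated and sorted cells.

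The median INP held 8490, 3288, 9811 and 6194.5 unique molecular identifiers (UMIs, counted transcripts) in mice 1 to 4. The median GBC held more in 4 of 4 mice, with an INP minus GBC difference of -2338 ± 1031 UMIs, which is p = 0.125 in an exact two-sided sign-flip permutation test and the smallest p that 4 mice allow. Against iOSN1 the INP median was higher in 3 of 4 mice and lower in mouse 2 (exact permutation p = 1). The median INP held fewer genes than the median iOSN1 in 4 of 4 mice (2653 against 2947 on average, exact permutation p = 0.125) and a higher mitochondrial share in 4 of 4 (0.928% against 0.634%, p = 0.125), and their part in the differences from iOSN1 was not tested. Libraries held 23157467 to 32382702 UMIs, and 0 of the INP barcodes were shared between libraries.

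Levels are given as UMIs of a gene per 10000 UMIs of all the cells of 1 type in 1 mouse, with the SD over mice. Differences are log2 changes with standard errors (SE) from edgeR's quasi-likelihood test, fitted to the 12 sums of GBC, INP and iOSN1 with the mouse as a block and called at an adjusted p under 0.05. The types were drawn by clustering the same cells, so a call says how steadily the labelled types differed over mice and is no test that the types exist. INP differed from GBC in 4266 of 9170 genes tested (46.5%), with 2196 higher in INP (23.9%) and 2070 lower (22.6%). Against iOSN1, 4308 genes were called (47%), with 1947 higher in INP (21.2%) and 2361 lower (25.7%). The median log2 change over all genes was 0.04 and -0.04. The same INP sums enter both comparisons, so their values stand side by side and are not independent.

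The label was first set beside its markers. The authors named the clusters with published markers, so high marker levels describe the label and are no independent test of it. Sox11, a SoxC transcription factor of new neurons, stood at 58.0, 63.5, 54.6 and 57.5 UMIs per 10000 in INP of mice 1 to 4. In GBC its level ran from 13.8 to 22.5 and in iOSN1 from 17.3 to 20.2. Every INP value was above every value of the neighbours, by 3.28-fold and 3.23-fold in the means (edgeR log2 change 1.72 ± 0.10, adjusted p = 9.13e-13, and 1.74 ± 0.09, adjusted p = 5.81e-13).

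Lhx2, a LIM homeodomain factor needed for OSN development, reached 29.8, 36.2, 32.9 and 29.1 UMIs per 10000 in INP. GBC held 5.22 ± 1.65 and iOSN1 7.42 ± 0.558, and neither overlapped with INP. The log2 changes were 2.66 ± 0.14 and 2.15 ± 0.13 (edgeR adjusted p = 2.85e-13 and 3.59e-12). UMIs of Lhx2 were counted in 284 of 284 INP, and those of Sox11 in 284.

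Neurod1, a basic helix-loop-helix (bHLH) factor of neuronal differentiation, was shared with GBC and nearly absent from the immature neurons. Its INP levels were 6.97, 12.0, 9.27 and 10.3, those of GBC 6.85, 6.88, 5.31 and 3.43, and those of iOSN1 at most 0.0764. INP and GBC did not overlap, although INP of mouse 1 lay close to the upper GBC values. The log2 change was 0.76 ± 0.17 against GBC and 8.19 ± 0.29 against iOSN1 (edgeR adjusted p = 8.31e-04 and 5.83e-16). The call against GBC was lost with DESeq2 (adjusted p = 0.275).

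Neurog1, the bHLH factor that acts before Neurod1, had the smallest edgeR log2 change between INP and GBC of the 4 markers. By the fold of means it was close to Neurod1 (1.75 and 1.71). INP of mice 1 to 4 held 0.708, 1.31, 0.951 and 0.673 UMIs per 10000, and GBC held 0.877, 0.497, 0.318 and 0.390. The ranges overlapped, since GBC of mouse 1 lay above INP of the same mouse, and the difference missed the threshold (log2 change 0.56 ± 0.24, edgeR adjusted p = 0.056). It passed without mouse 1 (1.13, adjusted p = 0.00168) and, with all 4 mice, without the filter on low counts (0.66, adjusted p = 0.0113). Against iOSN1, at 0.0417 ± 0.0143, it was called (4.35 ± 0.30, adjusted p = 5.90e-11). At 5000 UMIs per cell, Neurog1 was detected in 25.1% of INP and 17.3% of GBC, and in 0 of 205 sustentacular cells, the supporting cells of the epithelium, which allows up to 1.46% of them to hold a Neurog1 UMI at this depth and sets no limit on cells that express it.

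The markers of the neighbouring types placed INP between them. Kit, a receptor tyrosine kinase of GBC, was at 0.0327, 0.0545, 0.0864 and 0.0182 UMIs per 10000 in INP of mice 1 to 4 and at 1.06 ± 0.328 in GBC, with no overlap (edgeR log2 change -4.54 ± 0.37, adjusted p = 7.80e-10). Lgr5, a receptor of stem and progenitor cells, was at 0.0250 ± 0.0244 and 0.295 ± 0.159 and was too low for the test. Gap43, the growth-associated protein of extending axons, was at 3.54, 0.982, 1.88 and 2.58 in INP, 0.206 ± 0.103 in GBC and 32.3 ± 1.49 in iOSN1. INP thus lay above all GBC values and below all iOSN1 values (edgeR log2 changes 3.45 ± 0.28, adjusted p = 7.89e-10, and -3.72 ± 0.17, adjusted p = 4.15e-14).

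**Figure D1:**
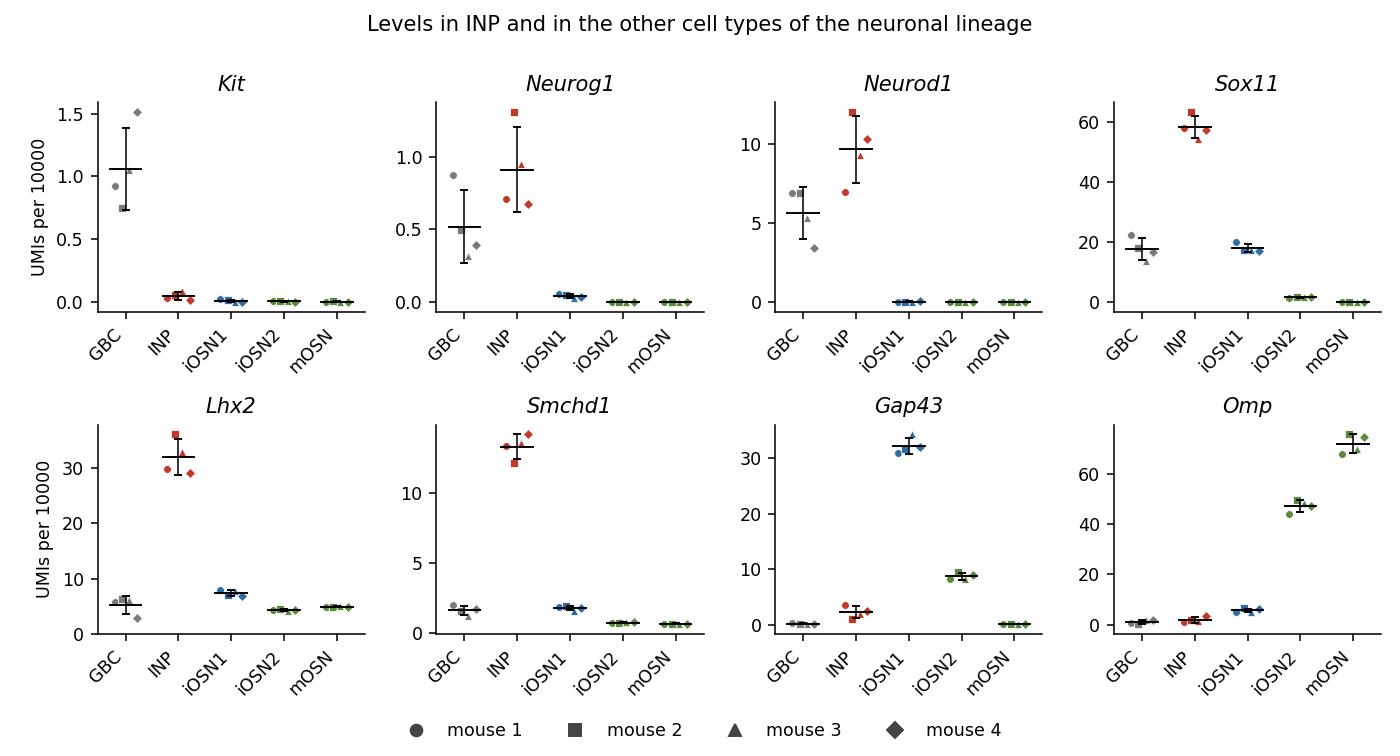
Levels of 8 genes (y axis, UMIs per 10000) in the 5 cell types of the neuronal lineage (x axis), with 1 point per mouse and the mean and SD over mice. Sox11, Lhx2 and Smchd1 were highest in INP in every mouse, Neurod1 and Neurog1 were held by GBC and INP, Gap43 was highest in iOSN1, and Omp was highest in mOSN.

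Defining markers of other cell types were at or near 0 in INP, after the authors had removed clusters of blood and immune cells. The 8 horizontal basal cell markers summed to 0 to 0.0763 UMIs per 10000 over the mice, the 8 sustentacular markers to 0.273 to 0.328, the 8 gland and glia markers to 0 to 0.0364 and the 8 microvillar markers to 0.0545 to 1.04. Trp63, Sox10, Pou2f3 and Ptprc had 0 UMIs in the INP sums. Immune markers summed to 0.0109, 1.04, 0.0519 and 0.0909 in mice 1 to 4 and the 6 red blood cell markers to 0.0218 to 1.36. GBC held more of these UMIs, with 2.03 to 4.99 for gland and glia and 3.35 to 10.3 for microvillar markers.

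A group of genes was high in INP and low on either side. The 15 genes with the largest differences from both neighbours were Sult6b1, Mss51, Gm10631, Grp, Gal3st2c, Gm14226, Ppp1r14a, Hrob, Ccsap, Rgs2, Col9a2, Dand5, Cdyl2, Selenom and Smchd1. They were chosen by these differences, so their values describe them and test nothing. In each of the 15 the lowest INP mouse lay above the highest GBC and iOSN1 mouse. Their log2 changes ran from 3.01 to 7.60 against GBC and from 2.96 to 8.86 against iOSN1.

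The promoters of these genes were searched for the E-box CAGATG, which reads CATCTG on the complementary strand and is a form of the motif bound by proneural bHLH factors. RefSeq promoter sequences (GRCm38.p6, from 250 bases before to 50 after the start of the gene) were found for 10 of the 15 genes. The E-box was present in 3 of these 10 and in 17.2% of all 27025 promoters. TAATTA, a core of homeodomain motifs that is its own reverse complement, was in 1 of the 10 and in 5.31% of all promoters. The matched stretches are shown because both motifs belong to the families of the INP marker factors, with the motif in capitals, 5′ to 3′ on the strand of the gene. A match is a description of letters and not of a binding site.
Ppp1r14a (chr7:29289125-29289150, + strand): cgcccccaccCATCTGaacccccgca
Selenom (chr11:3514596-3514621, + strand): tccttgtgtcCATCTGcgaacctcct
Ccsap (chr8:123858842-123858867, - strand): ctcgatccacCAGATGgcggatctgt
Mss51 (chr14:20497026-20497051, - strand): ctgatttcccTAATTAatcccaagag

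Sult6b1, a member of the cytosolic sulfotransferase family, stood at 3.91, 7.25, 3.32 and 5.06 UMIs per 10000 in INP. GBC held at most 0.0377 and iOSN1 at most 0.0208, and its UMIs were counted in 174 of 284 INP. Of the 15 genes it had the largest log2 change against either neighbour, 7.60 ± 0.28 and 8.86 ± 0.24.

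Grp encodes gastrin-releasing peptide, a neuropeptide of the bombesin family. INP of mice 1 to 4 held 8.76, 11.3, 8.07 and 9.13 UMIs per 10000, GBC 0.194 ± 0.123 and iOSN1 0.0726 ± 0.0346. It was detected in 254 of 284 INP, and its mean INP level was 47.9-fold that of GBC and 128-fold that of iOSN1.

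Selenom, a selenoprotein of the endoplasmic reticulum, stood at 52.8, 59.6, 51.0 and 57.7 UMIs per 10000 in INP and was detected in 284 of 284 cells. GBC held 4.49 ± 0.537 and iOSN1 7.31 ± 1.54. Ppp1r14a, an inhibitor of myosin phosphatase, was at 5.28 ± 0.356 in INP, 0.278 ± 0.105 in GBC and 0.0332 ± 0.0133 in iOSN1.

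Smchd1 and Cdyl2 encode chromatin proteins. Smchd1, an SMC-hinge protein known for its part in silencing the inactive X chromosome and some gene clusters, reached 13.4, 12.2, 13.6 and 14.2 UMIs per 10000 in INP, against 1.62 ± 0.323 in GBC and 1.79 ± 0.158 in iOSN1. It stood at 0.739 ± 0.0564 in the later immature cluster (iOSN2) and at 0.648 ± 0.0266 in mOSN, so the INP level was the highest of the lineage in every mouse. Cdyl2, a chromodomain protein, was at 2.49 ± 0.386 in INP, 0.158 ± 0.0772 in GBC and 0.316 ± 0.0570 in iOSN1.

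Among the other members were Rgs2, a regulator of G-protein signalling at 2.49 ± 0.319 in INP, Col9a2, a collagen chain at 3.88 ± 1.05, and Dand5, a secreted antagonist of Nodal and BMP at 1.92 ± 0.268. Their GBC and iOSN1 means were at most 0.431 UMIs per 10000. The plot of the 15 genes shows the gap between INP and its neighbours gene by gene.

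**Figure D2:**
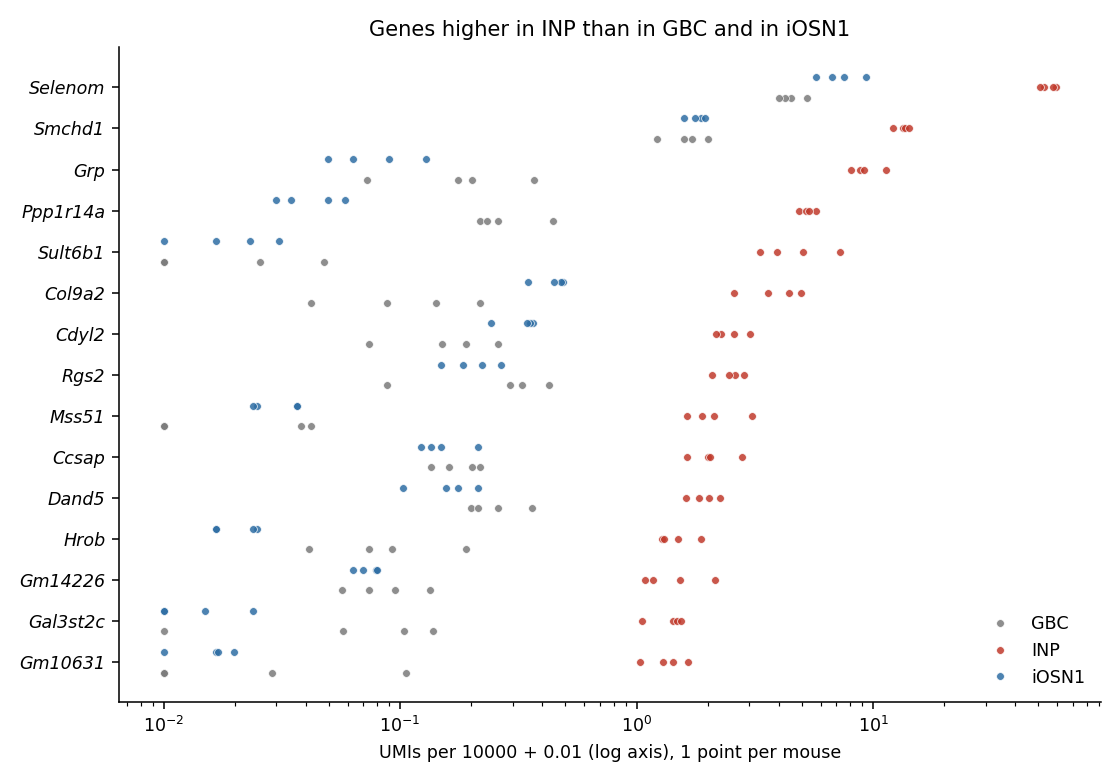
Levels of the 15 genes chosen for the largest differences between INP and both neighbours, with 1 point per mouse for each cell type, on a log x axis of UMIs per 10000 plus 0.01. For every gene the 4 INP points lie to the right of all GBC and iOSN1 points.

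The opposite pattern was described by the 5 genes with the deepest trough in INP, Ptn, Bcap31, Prdx4, Rexo2 and Rpn2. Ptn, the secreted growth factor pleiotrophin, was at 0.120, 0.109, 0.121 and 0.164 UMIs per 10000 in INP, 2.39 ± 0.244 in GBC and 1.61 ± 0.123 in iOSN1. INP lay below every value of either neighbour. Bcap31, Prdx4 and Rpn2, proteins of the endoplasmic reticulum, had INP means of 0.401, 0.370 and 0.430, beside 1.44, 1.18 and 1.22 in GBC and 1.52, 1.10 and 1.10 in iOSN1.

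Transcription factors of neuronal precursors and young neurons were mostly higher in INP than on either side. Of 29 listed factors 27 were tested. Against GBC 19 were higher, 5 lower and 3 not called, and against iOSN1 21 were higher, 2 lower and 4 not called, where 23.9% and 21.2% of all genes were higher. The median log2 change of the tested factors was 1.96 and 1.38, beside 0.04 and -0.04 over all genes.

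Some factors were highest in INP. Nhlh2, a bHLH factor of early neurons, was at 7.52 ± 0.854 UMIs per 10000 in INP, 1.44 ± 0.295 in GBC and 1.24 ± 0.159 in iOSN1 (edgeR log2 changes 2.42 ± 0.13 and 2.66 ± 0.11, adjusted p = 2.67e-13 and 1.25e-14). Bcl11b, a zinc-finger factor known for its part in the choice between receptor classes, was at 9.65 ± 1.23, 1.70 ± 0.335 and 3.18 ± 0.493 (log2 changes 2.50 ± 0.12 and 1.66 ± 0.10). Eya2, a transcriptional coactivator, was at 2.59 ± 0.176, 0.432 ± 0.170 and 0.175 ± 0.0621 (2.60 ± 0.19 and 3.90 ± 0.17).

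The Ebf factors and Myt1l were higher in INP than in GBC and differed in how they stood to iOSN1. Ebf1, a factor that binds the promoters of many OSN genes, was at 4.32 ± 1.46 in GBC, 18.9 ± 1.37 in INP and 21.4 ± 0.445 in iOSN1 (edgeR log2 changes 2.11 ± 0.12, adjusted p = 2.68e-12, and -0.13 ± 0.11, adjusted p = 0.36). Ebf2 and Ebf3 were at 11.0 ± 0.588 and 5.57 ± 0.492 in INP, with log2 changes of 2.52 ± 0.12 and 3.60 ± 0.13 against GBC and of 0.35 ± 0.10 and 0.50 ± 0.09 against iOSN1. The difference of Ebf2 from iOSN1 was not called without mouse 3 (adjusted p = 0.0637). Ebf4 was called higher in iOSN1 (0.902 ± 0.162) than in INP (0.147 ± 0.0476), with a log2 change of -2.40 ± 0.21 (edgeR adjusted p = 1.85e-09). Myt1l, a zinc-finger repressor of non-neuronal genes, was at 0.0943 ± 0.0722 in GBC, 8.03 ± 0.117 in INP and 3.81 ± 0.357 in iOSN1.

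Other factors were higher in GBC. Hes6, which favours neuronal differentiation, stepped down from 12.5 ± 5.13 in GBC through 6.40 ± 0.634 in INP to 1.55 ± 0.187 in iOSN1 (edgeR log2 changes -0.98 ± 0.16 and 2.07 ± 0.17, adjusted p = 2.21e-05 and 8.99e-10). Runx1, a Runt-domain factor, was at 2.63 ± 0.781 in GBC and 0.0607 ± 0.0209 in INP (log2 change -5.44 ± 0.28, adjusted p = 2.12e-13).

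Most regulators that hold cells in the progenitor state were lower in INP than in GBC. Of 19 listed genes 14 were tested, of which 10 were lower, 2 higher and 2 not called, where 22.6% of all genes were lower. The list summed to 18.2 ± 0.710 UMIs per 10000 in INP and 29.9 ± 5.36 in GBC. It was not particular to these types, with 17.3 ± 0.433 in sustentacular cells, 21.7 ± 5.41 in the microvillar cluster Mv1 and 24.2 ± 2.11 in the horizontal basal cluster HBC1. Sox2, a stem and progenitor factor, was at 0.0813 ± 0.0435 UMIs per 10000 in INP and 1.20 ± 0.376 in GBC, and Pax6, a paired-box factor of olfactory progenitors, at 0.0416 ± 0.0355 and 1.18 ± 0.290. Sox9 was at 0.0759 ± 0.0313 and 1.83 ± 1.30, and the gland and glia markers, which also differed between these types, summed to 0.0259 ± 0.0173 and 3.01 ± 1.37. The sustentacular markers summed to 0.307 ± 0.0240 and 2.64 ± 2.22. The part of these markers in the differences of Sox9, Sox2, Pax6 and the other regulators was not tested. The members higher in INP were Id4, an inhibitor of bHLH factors (2.87 ± 0.0283 against 0.305 ± 0.0528), and the bHLH factor Olig2 (1.66 ± 0.266 against 0.158 ± 0.0666).

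Against iOSN1, 10 of the same 14 regulators were higher in INP, 1 lower and 3 not called, where 21.2% of all genes were higher. Ezh2, the catalytic subunit of Polycomb repressive complex 2, was at 4.08 ± 0.161 in INP, 4.11 ± 0.674 in GBC and 1.04 ± 0.0843 in iOSN1 (edgeR log2 change against iOSN1 2.02 ± 0.11, adjusted p = 4.75e-13). Id1, another inhibitor of bHLH factors, was at 2.96 ± 0.254, 4.19 ± 1.68 and 0.210 ± 0.0956.

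Of 20 listed genes of the Notch pathway, by which neighbouring cells hold one another back from differentiation, 13 were tested. Against GBC 8 were lower and 5 not called, where 22.6% of all genes were lower. Against iOSN1 5 were higher, 1 lower and 7 not called, where 21.2% of all genes were higher and 25.7% lower. With the cells of the highest doublet scores left out, the 8 became 5, and on thinning to 5000 UMIs they became 3. Without mouse 1, on thinning or with only INP and iOSN1 in the fit the 5 became 3. Each alternative had its own set of tested genes (6112 on thinning), so a listed gene outside it also left the count. The 1 lower than iOSN1 became 0 when any 1 mouse was left out, and without mouse 4 or without the filter on low counts 1 gene was called higher than in GBC. The target gene Hes1 was at 0.0314 ± 0.0228 UMIs per 10000 in INP and 0.825 ± 0.255 in GBC, and the receptor Notch1 at 0.330 ± 0.129 and 0.773 ± 0.244. The receptor Notch2 had 0 UMIs in the INP sums and 40 in GBC, which puts INP at least 15.3-fold lower when 3 counts over the summed INP are taken as the floor. Mfng, a glycosyltransferase that modifies Notch, was at 2.82 ± 0.808 in INP, 2.47 ± 0.940 in GBC and 0.0587 ± 0.0230 in iOSN1 (edgeR adjusted p = 0.674 and 1.24e-13). The ligands Dll1 and Dll3 had 2 and 0 UMIs in INP and were too low for the test. Summed, the list held 5.33 ± 0.714 in INP, 7.60 ± 1.39 in GBC, 1.83 ± 0.0947 in iOSN1, 8.51 ± 0.685 in sustentacular cells and 15.7 ± 1.69 in HBC1. GBC also held more UMIs of non-neuronal markers than INP, and their part in the Notch differences was not tested.

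Genes of cell division were far lower in INP than in GBC. The 30 listed G2 and M phase genes were all called lower, as were the 21 tested of 26 S phase genes, where 22.6% of all genes were lower. Thinned to 5000 UMIs per cell, the 21 became 13, where 1242 of the 6112 genes tested were lower. An S phase gene not tested at this depth would also leave the count. Summed, the G2 and M phase genes held 7.19, 7.58, 6.07 and 5.78 UMIs per 10000 in INP of mice 1 to 4, 86.4 to 107 in GBC and 4.62 ± 0.0876 in iOSN1. INP overlapped with the microvillar clusters Mv1 (5.73 ± 1.41) and Mv2 (6.67 ± 0.294). They lay above sustentacular cells (2.94 ± 0.819) and the horizontal basal clusters HBC1 (2.83 ± 0.453) and HBC2 (4.16 ± 0.578). The median log2 change against GBC was -4.52 for the G2 and M phase genes and -2.78 for the S phase genes.

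Top2a, the topoisomerase of dividing cells, stood at 0.283, 0.0545, 0.0519 and 0.109 UMIs per 10000 in INP and at 8.28, 5.59, 7.26 and 6.21 in GBC. The ranges did not overlap (edgeR log2 change -5.47 ± 0.26, adjusted p = 4.99e-14). Hmgb2, a chromatin protein abundant in cycling cells, was at 2.73 ± 0.334 in INP, 30.9 ± 2.03 in GBC and 2.98 ± 0.107 in iOSN1. Ccnd1, the cyclin that drives cells through G1, was at 0.0379 ± 0.0157 in INP and 6.70 ± 3.21 in GBC, a level 176-fold higher in GBC.

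Part of the mitotic genes was still higher in INP than in iOSN1. Of the 30 G2 and M phase genes 15 were called higher and 15 not called, where 21.2% of all genes were higher. Ube2c, the ubiquitin-conjugating enzyme of mitotic exit, was at 0.606 ± 0.195 in INP and 0.0278 ± 0.0190 in iOSN1 (edgeR log2 change 4.36 ± 0.31, adjusted p = 8.54e-11), beside 8.44 ± 0.672 in GBC. Its UMIs were found in 52 of 284 INP. Without mouse 1 the 15 became 7, and with only INP and iOSN1 in the fit they became 6. With each cell thinned to 5000 UMIs they became 5, where 1342 of the 6112 genes tested were higher. Of the S phase genes 5 were higher than in iOSN1, 3 lower and 13 not called, where 25.7% of all genes were lower. The 5 became 3 without mouse 1, without mouse 4 or with only INP and iOSN1 in the fit, and 2 on thinning. The 3 became 0 without mouse 1 or on thinning and 1 without mouse 3 or mouse 4.

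After each cell was thinned to 5000 UMIs, so that depth was equal, a UMI of Mki67 or Top2a was found in 6.46% ± 0.589 of INP, 59.0% ± 10.9 of GBC and 3.41% ± 1.59 of iOSN1. INP ranged from 5.66 to 7.06% over the mice and iOSN1 reached 5.33%, so INP lay above iOSN1 and below GBC in every mouse. These were 14 of 215 INP, and mouse 2 had 15 INP at this depth, so its share turns on single cells. The non-neuronal cluster HBC2, labelled as horizontal basal cells, gave 3.55% ± 1.22, sustentacular cells gave 1.86% ± 2.62, and Mv1, a microvillar cluster of 26 cells at this depth, 6.94% ± 8.33. HBC2 held 34.4 ± 5.52 UMIs per 10000 of the horizontal basal cell markers and 167 ± 43.8 of the sustentacular markers. With 2 UMIs of either gene asked, the shares were 0.991% ± 1.18 of INP and 0.918% ± 0.418 of iOSN1, which overlapped. Before thinning, the median INP held 7545.5 UMIs, HBC2 7186.5 and sustentacular cells 5587. Thinning kept 215 of the 284 INP, and without it the INP share was 10.1% ± 2.94.

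Regulators of G1 and of leaving the cycle were mixed. Of 22 listed genes 16 were tested, with 3 higher, 6 lower and 7 not called against GBC and 8 higher, 1 lower and 7 not called against iOSN1. Of all genes 23.9% were higher and 22.6% lower against GBC, and 21.2% higher and 25.7% lower against iOSN1. Without mouse 2 the 3 became 5. Without the filter on low counts, where 24256 genes were tested in place of 9170, the 6 became 12. The 1 lower than iOSN1 became 0 without mouse 1, 2 without mouse 3 or mouse 4 and 3 on thinning. Gadd45a and Gadd45b, stress and growth-arrest genes, were called higher than on either side, at 3.04 ± 0.455 and 2.47 ± 0.592 in INP, 2.28 ± 0.610 and 1.43 ± 0.626 in GBC, and 0.229 ± 0.0190 and 0.420 ± 0.269 in iOSN1. Against GBC the call of Gadd45a was lost in 7 of 12 alternatives, with edgeR adjusted p = 0.202 without mouse 3, 0.349 without mouse 4, 0.353 without the highest doublet scores, 0.0985 in cells of at least 2000 genes, 0.0621 with DESeq2's size factors, 0.0549 with 2 types in the fit and, by DESeq2, 0.134. That of Gadd45b was lost without the mouse as a block (adjusted p = 0.0559) and on thinning (0.147). The kinase inhibitor Cdkn1b was at 1.44 ± 0.394, 1.21 ± 0.209 and 0.316 ± 0.0408, a difference that passed the test only against iOSN1. Cdkn1c, another kinase inhibitor, was lower in INP (0.542 ± 0.0750) than in GBC (2.23 ± 1.07) and in iOSN1 (0.888 ± 0.0428), the latter not without mouse 1 (adjusted p = 0.0997).

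**Figure D3:**
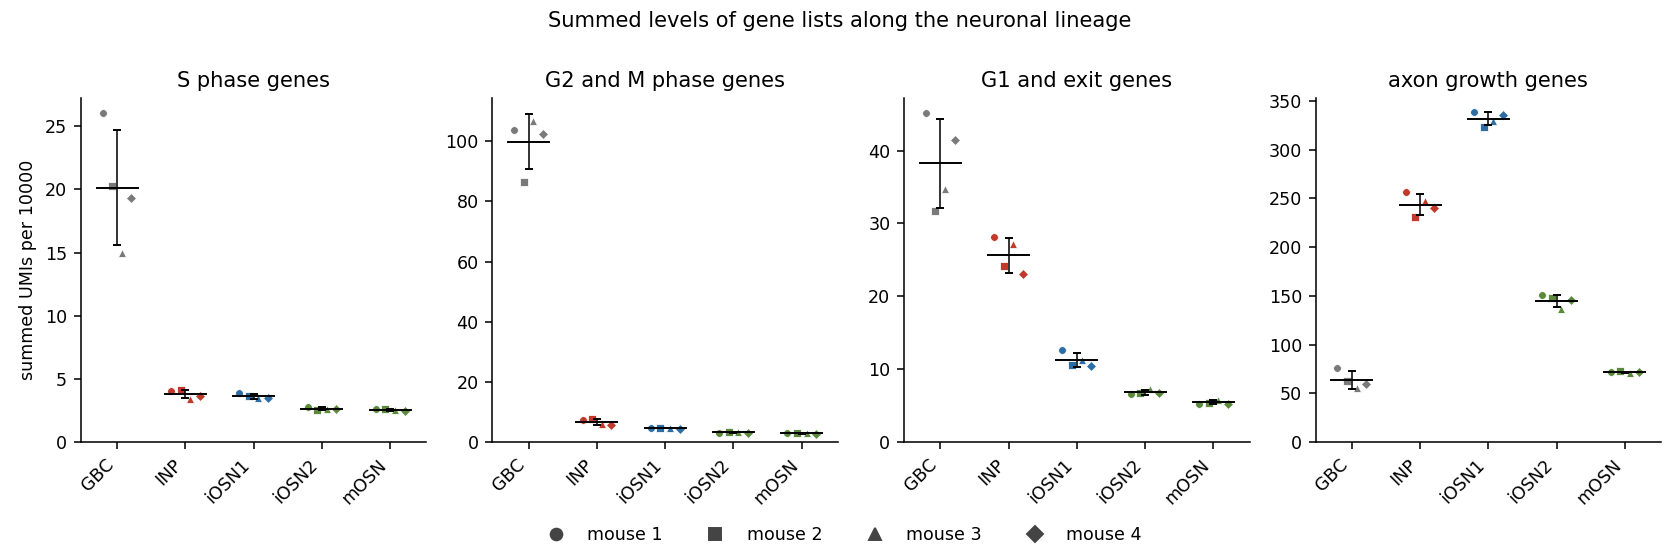
Summed levels (y axis, UMIs per 10000) of the S phase, G2 and M phase, G1 and exit, and axon growth lists in the 5 cell types of the neuronal lineage (x axis), with 1 point per mouse and the mean and SD over mice. Both division lists drop between GBC and INP, the G1 list steps down from GBC through INP to iOSN1, and the axon growth list is higher in INP than in GBC and higher again in iOSN1.

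Most genes of axon growth and the neuronal cytoskeleton were higher in INP than in GBC. Of 29 listed genes 27 were tested, of which 22 were higher and 5 not called, where 23.9% of all genes were higher, and the median log2 change was 2.39. Against iOSN1 7 were higher, 14 lower and 6 not called, with a median of -0.24, where 21.2% of all genes were higher and 25.7% lower. The list summed to 244 ± 10.6 UMIs per 10000 in INP, 63.4 ± 9.05 in GBC, 332 ± 6.53 in iOSN1 and 71.6 ± 0.767 in mOSN.

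The members reached their neuronal level at different points. Stmn2, a microtubule regulator of growing neurites, was at 43.1, 40.7, 40.3 and 39.7 in INP, 1.41 ± 0.570 in GBC and 41.1 ± 2.17 in iOSN1, and the difference between INP and iOSN1 was not called (edgeR log2 changes 4.82 ± 0.15, adjusted p = 7.01e-17, and 0.05 ± 0.11, adjusted p = 0.768). Thinned to 5000 UMIs per cell, Stmn2 was called higher in INP (0.18, adjusted p = 0.049). Gng8, a G protein gamma subunit of immature OSNs, had the same course, with 12.3 ± 1.18, 0.777 ± 0.372 and 12.3 ± 0.733 (against iOSN1 0.04 ± 0.13, adjusted p = 0.819). Tubb2b, a neuronal beta tubulin, was at 27.8 ± 3.37, 2.90 ± 0.430 and 29.6 ± 0.930.

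Gap43 and the doublecortin gene Dcx were still far below their iOSN1 level. Dcx, which binds microtubules in migrating and growing neurons, was at 0.909 ± 0.136 in INP, 0.0589 ± 0.0441 in GBC and 4.07 ± 0.152 in iOSN1 (edgeR log2 changes 3.93 ± 0.28 and -2.05 ± 0.13, adjusted p = 6.91e-11 and 9.08e-12). Stmn4 and the adhesion molecule Ncam1 lay in the same order, at 0.380 ± 0.0870 and 10.7 ± 1.81 in INP and 3.84 ± 0.182 and 23.8 ± 1.43 in iOSN1. The opposite held for Dbn1, an actin-binding protein (3.65 ± 0.677 in INP, 1.42 ± 0.372 in GBC, 0.941 ± 0.0471 in iOSN1), and for Dpysl5, a collapsin response mediator (5.24 ± 0.611, 0.546 ± 0.0945 and 1.94 ± 0.133).

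The 2 neuropilins, receptors for semaphorins that guide OSN axons, differed. Nrp2 was at 3.19 ± 0.280 in INP, 0.123 ± 0.169 in GBC and 1.76 ± 0.0587 in iOSN1, and was higher in INP than on either side (edgeR log2 changes 5.38 ± 0.31 and 0.94 ± 0.16, adjusted p = 2.19e-12 and 4.60e-05), the latter lost with DESeq2 (adjusted p = 0.269). Nrp1 was at 0.195 ± 0.0642, 0.101 ± 0.102 and 1.27 ± 0.208, and was called against iOSN1 (-2.48 ± 0.24, adjusted p = 1.10e-08). Against GBC it was called in cells of at least 2000 genes alone (1.03, adjusted p = 0.0312).

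Odorant transduction and mature neuron genes were low in INP. Of 20 listed genes 17 were tested, and 12 were higher than in GBC and 5 not called, where 23.9% of all genes were higher, while against iOSN1 1 was higher, 13 lower and 3 not called, where 25.7% were lower. Thinned to 5000 UMIs per cell, the 12 became 5, where 1092 of the 6112 genes tested were higher. A listed gene not tested at this depth would also leave the count. The list summed to 33.0 ± 5.22 UMIs per 10000 in INP, 19.7 ± 4.13 in GBC and 99.3 ± 1.18 in iOSN1, and mOSN held 374 ± 5.66. Without the 11 INP of 10 or more Omp UMIs, the INP sum was 25.7 ± 1.11. The 12 calls against GBC were not recomputed without these cells. At 5000 UMIs per cell, an Omp UMI was found in 19.1% of INP, in 25.4% of sustentacular cells, 21.9% of HBC2, 15.9% of the microvillar cluster Mv2 and 10.3% of GBC. The INP share lay within the range of these types, which should lack Omp, so the share alone is not read as expression, and the INP with 10 or more Omp UMIs are described with the receptors.

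The G protein alpha subunits Gnas and Gnal stood on opposite sides of their iOSN1 level. Gnas, the widely expressed stimulatory subunit, was at 13.6, 14.9, 15.4 and 14.1 in INP, 9.22 ± 0.463 in GBC and 2.10 ± 0.113 in iOSN1, with every INP value above the neighbours (edgeR log2 changes 0.64 ± 0.08, adjusted p = 9.75e-07, and 2.84 ± 0.09, adjusted p = 4.99e-17). Gnal, the olfactory subunit that couples receptors to adenylyl cyclase, was at 0.567, 0.709, 0.830 and 1.36 in INP, 0.353 ± 0.154 in GBC and 4.39 ± 0.320 in iOSN1, with every INP value below iOSN1 (log2 change -2.30 ± 0.18, adjusted p = 3.46e-10). Gng13 and Gnb1, the subunits that pair with Gnal in OSNs, were at 3.19 ± 1.65 and 6.74 ± 0.246 in INP and 21.9 ± 1.67 and 25.8 ± 1.40 in iOSN1. The receptor transport genes Rtp1 and Rtp2 were at 0.296 ± 0.0670 and 0.344 ± 0.0874 in INP and 1.49 ± 0.224 and 1.98 ± 0.0232 in iOSN1.

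Genes of the unfolded protein response, which receptor protein is known to trigger in OSNs, were mostly below their iOSN1 level. Of 18 listed genes 16 were tested, with 1 higher and 13 lower against iOSN1, where 25.7% of all genes were lower, and 1 higher and 7 lower against GBC, where 23.9% of all genes were higher and 22.6% lower. The 1 higher than iOSN1 became 0 without mouse 4. Atf5, the factor translated during this response in OSNs, was the member higher than in GBC, at 16.4, 14.9, 15.2 and 13.7 in INP, 1.89 ± 0.386 in GBC and 41.0 ± 1.11 in iOSN1. INP lay between the 2 types without overlap (edgeR log2 changes 2.94 ± 0.11 and -1.40 ± 0.09, adjusted p = 1.09e-15 and 1.17e-11). The chaperone Hspa5 was lower in INP (3.33 ± 0.225) than in GBC (4.54 ± 0.596) and in iOSN1 (4.86 ± 0.291), the former not without mouse 3 (edgeR adjusted p = 0.0518), and Hsp90b1 was lower than both (3.80 ± 0.459, 7.80 ± 0.785 and 8.23 ± 0.237).

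Chromatin genes linked to receptor choice and heterochromatin did not move as a block. Of 24 listed genes 23 were tested, with 7 higher, 9 lower and 7 not called against GBC and 10 higher, 2 lower and 11 not called against iOSN1. Of all genes 23.9% were higher and 22.6% lower against GBC, and 21.2% higher and 25.7% lower against iOSN1. Kdm1a, the lysine demethylase LSD1 that is needed to start receptor expression, was at 3.13, 4.04, 3.61 and 3.60 UMIs per 10000 in INP, 1.79 ± 0.204 in GBC and 1.63 ± 0.0881 in iOSN1. Every INP value lay above both neighbours (edgeR log2 changes 0.95 ± 0.12, adjusted p = 3.68e-07, and 1.17 ± 0.10, adjusted p = 3.20e-09). Lbr, the lamin B receptor that tethers heterochromatin to the nuclear envelope, was at 0.423 ± 0.156, 0.751 ± 0.120 and 0.162 ± 0.0285, and Lmnb1, which encodes lamin B1, at 0.154 ± 0.0440, 2.29 ± 0.251 and 0.375 ± 0.0483. The DNA methyltransferase Dnmt3a was at 0.519 ± 0.0728 in INP and 1.53 ± 0.321 in iOSN1 (adjusted p = 3.92e-08).

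Odorant receptor transcripts were sparse in INP. Summed over the 1429 receptor genes, which were kept out of the gene tests, INP of mice 1 to 4 held 3.92, 1.58, 2.06 and 5.66 UMIs per 10000. GBC held 1.51 ± 1.17 and iOSN1 39.0 ± 7.57, while HBC2 and sustentacular cells, which should lack receptors, held 4.85 ± 1.43 and 4.56 ± 2.51. The INP values were thus all far below iOSN1 and overlapped with those of the non-neuronal types.

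INP were also compared with the other types by the number of receptors per cell, counting single UMIs. After thinning to 5000 UMIs, 37.0% ± 7.72 of INP held any receptor UMI, beside 30.0% ± 5.08 of HBC2, 29.6% ± 5.75 of sustentacular cells, 19.1% ± 7.25 of GBC and 93.3% ± 1.46 of iOSN1. UMIs of 2 or more receptor genes were found in 15.4% ± 1.56 of INP (34 of 215 cells), against 6.59% ± 3.32 of HBC2, 4.27% ± 3.18 of sustentacular cells, 0.725% ± 1.45 of GBC and 39.4% ± 6.73 of iOSN1. At this depth the 4 INP mice, from 13.3 to 17.0%, lay above all HBC2, sustentacular and GBC values, of which the highest was 11.1%. They lay below all iOSN1 values. Mv1 ranged from 0 to 33.3% and overlapped. Mouse 2, the lowest, had 15 INP at this depth, so its share turns on single cells. Without thinning INP ran from 7.89 to 25.9% and overlapped with HBC2 (to 11.8%), sustentacular cells (to 8.45%) and GBC (to 17.4%).

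The receptor UMIs of INP were mostly single ones. At full depth, of the 140 INP with a receptor UMI, 99 had 1 UMI of their highest receptor, 22 had 2 to 4, 2 had 5 to 9 and 17 had 10 or more. The 819 receptor UMIs of INP came from 227 receptor genes, and 32 cells held 3 or more receptors, with up to 15 in 1 cell. With at least 2 UMIs asked of each receptor, 5 of the 284 INP held 2 or more receptors at full depth (1.79% ± 2.44 over the mice, with 5.17% in mouse 3), beside 14.5% ± 3.03 of iOSN1. Thinned to 5000 UMIs, 0 of 215 INP did, which allows up to 1.40% of them to hold such UMIs at that depth, and 12.8% ± 2.60 of iOSN1. At full depth HBC2 gave 1.43% ± 0.791 and sustentacular cells 0.736% ± 0.881, and at 5000 UMIs they gave 1.62% ± 1.29 and 1.11% ± 1.38, so at this stricter limit INP did not stand above these types.

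**Figure D4:**
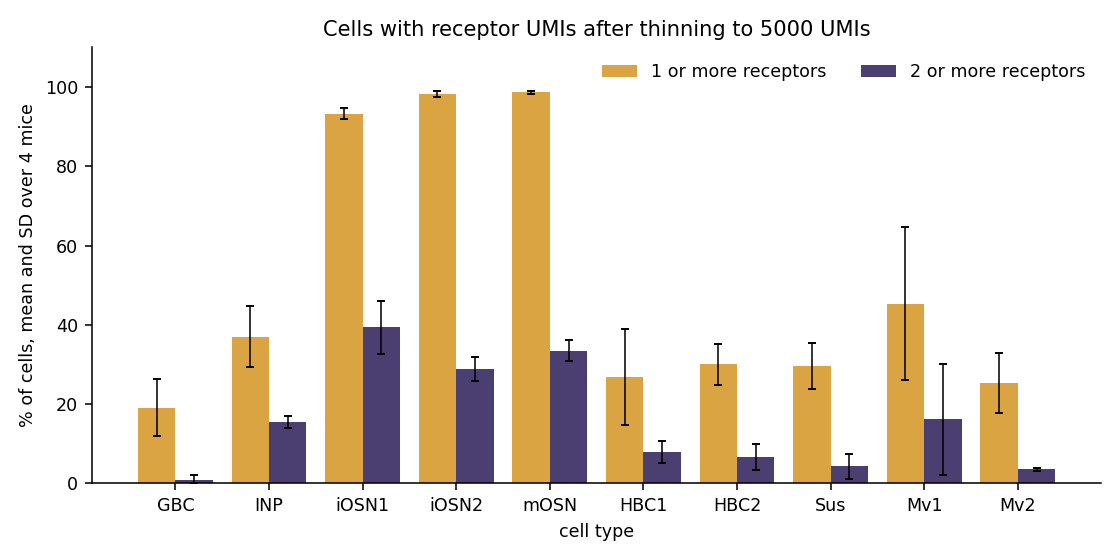
Share of cells (y axis, %, mean and SD over 4 mice) with UMIs of 1 or more and of 2 or more receptor genes in each of the 10 cell types (x axis), after every cell was thinned to 5000 UMIs. With 15.4% of cells holding 2 or more receptors, INP lie above HBC2 (6.59%) and HBC1 (7.91%) and below iOSN1 (39.4%). Mv1, with 26 cells, is at 16.1%.

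The INP with many UMIs of 1 receptor were of more than 1 kind. In mouse 4 the cell with the most held 75 UMIs of Olfr329, 53 of Omp and 0 of Gap43, and in mouse 1 a cell held 41 UMIs of Olfr171, 0 of Omp and 35 of Gap43. Of 11 INP with 10 or more Omp UMIs, 9 also had 10 or more UMIs of 1 receptor, and 6 of the 11 were in mouse 4. A further 8 INP had 10 or more UMIs of 1 receptor with fewer than 10 of Omp.

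Leaving out the cells with 10 or more Omp UMIs, a limit chosen after the data were seen, lowered the receptor level to 2.09 ± 0.923 in INP, 0.418 ± 0.134 in GBC and 34.1 ± 6.97 in iOSN1. The share of INP with 2 or more receptors was then 15.5% ± 1.55, beside 0.746% ± 1.49 of GBC and 38.0% ± 8.13 of iOSN1. The 5 mature OSN markers (Omp, Adcy3, Cnga2, Gng13 and Gnal), which had summed to 4.50, 5.45, 4.63 and 11.3 in mice 1 to 4, came to 2.89, 1.53, 2.13 and 1.66 without these cells. Mouse 4, the highest of the 4 before, then lay below mice 1 and 3. In GBC, with no cell left out, these markers summed to 3.79 ± 2.33.

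Among the 10 genes highest relative to GBC, which Sult6b1 led, 4 have not been named above. Crabp1, a retinoic acid binding protein, was at 45.1, 37.5, 44.0 and 40.9 UMIs per 10000 in INP, 0.322 ± 0.202 in GBC and 9.93 ± 1.36 in iOSN1. INP lay above both neighbours in every mouse (edgeR log2 changes 6.83 ± 0.17 and 2.13 ± 0.11, adjusted p = 3.91e-18 and 5.42e-13). Tex15, a gene known from meiotic cells, was at 10.2 ± 0.390, 0.126 ± 0.0576 and 3.27 ± 0.821, while Gm16579 and Arl14epl, at 1.58 ± 0.183 and 3.36 ± 0.575 in INP, remained at 1.21 ± 0.127 and 2.18 ± 0.211 in iOSN1.

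The 10 genes lowest relative to GBC each had at most 10 UMIs over the INP sums. Sparc, a matrix glycoprotein, Igfbp4, an insulin-like growth factor binding protein, and Fabp7, a glial fatty acid binding protein, had 0 UMIs in INP and 603, 353 and 260 in GBC, which puts INP at least 179.7-fold, 91.8-fold and 81.4-fold lower by the same floor of 3 counts. Rgs5, Hmmr, Upp1, Kif11 and Cldn5 had 1 or 2 UMIs each in INP. Wfdc18, a secreted whey-acidic protein, had 10 UMIs in INP, and its GBC levels of 1.26, 14.9, 18.6 and 157 showed that mouse 4 held most of it. The microvillar and the gland and glia markers named above were higher in GBC too, and their part in these differences was not tested.

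Relative to iOSN1, the genes lowest in INP included several of maturing OSNs. Calb2, the calcium-binding protein calretinin, was at 1.56, 0.654, 0.259 and 1.24 UMIs per 10000 in INP, 0.0582 ± 0.0758 in GBC and 23.6 ± 0.322 in iOSN1, with no overlap between INP and iOSN1 (edgeR log2 change -4.56 ± 0.23, adjusted p = 1.67e-13). Prph, an intermediate filament protein, was at 0.125 ± 0.0874 in INP and 2.66 ± 0.0887 in iOSN1, Cntn4, an axonal adhesion molecule, at 0.348 ± 0.148 and 4.21 ± 0.421, and Nqo1, a quinone reductase of dorsal OSNs, at 0.120 ± 0.0610 and 1.89 ± 0.739. Brdt, a bromodomain protein (0.0289 ± 0.0248 and 1.05 ± 0.134), and the transcription factor Mef2b (0.302 ± 0.240 and 5.61 ± 0.220) followed the same direction. Among the genes highest relative to iOSN1, Dnase2a, a lysosomal nuclease, was at 2.75 ± 0.996 in INP, 0.892 ± 0.359 in GBC and 0.0338 ± 0.0156 in iOSN1.

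INP varied among themselves in Neurog1, an INP marker, and in Gap43, a marker of immature OSNs. By the UMIs of Neurog1 and Gap43 in each cell, 68 INP held only Neurog1, 44 held both, 81 held only Gap43 and 91 held neither, which was 25.7% ± 7.45, 14.9% ± 5.96, 26.4% ± 7.13 and 33.0% ± 9.80 of the INP of a mouse. Their median UMIs per cell were 7327, 8666.5, 7813 and 7069. Mouse 2 held 11 cells with only Neurog1 and 7 with only Gap43, so its class values rest on few cells. A gene at this level can be missed in a cell that expresses it, so the classes are a description. At 5000 UMIs per cell, Gap43 was found in 36.7% of INP, 3.21% of GBC and 2.44% of sustentacular cells.

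Other genes differed along this division. Neurod1 was at 11.9, 15.0, 13.2 and 16.1 UMIs per 10000 in the cells with only Neurog1 and at 2.75, 5.65, 7.21 and 4.92 in those with only Gap43. The first were higher than the second in every mouse without overlap. Ebf1 went the other way, at 15.0, 13.7, 11.1 and 12.7 and 27.2, 23.3, 28.7 and 22.5, and so did Ncam1, at 6.65, 6.05, 5.47 and 7.68 and 19.0, 13.4, 12.9 and 14.8. Neither overlapped between the classes.

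Further genes followed 1 of the 2 courses. Lhx2, at 36.4 ± 2.66 and 29.3 ± 3.49, Sox11, at 67.7 ± 7.08 and 54.6 ± 3.36, and Nhlh1, a relative of Nhlh2, at 3.82 ± 0.602 and 2.32 ± 0.385, were higher in the cells with only Neurog1. So was Gadd45g, at 4.91 ± 0.991 and 2.20 ± 0.538, and Gng8 was higher in those with only Gap43, at 11.1 ± 1.31 and 13.6 ± 1.82. The mice of the classes did not overlap in any of these 5 genes. For Lhx2 the gap was narrow, with 33.4 in mouse 4 of the first class and 33.2 in mouse 2 of the second. Stmn2 was at 32.6 to 46.2 in the first and 42.2 to 44.8 in the second, ranges that overlapped, as did those of Hes6, Dcx, Kdm1a and Insm1. Compared within each mouse, Dcx was higher in the cells with only Gap43 and Kdm1a in those with only Neurog1. The gap was small for Dcx in mouse 2 (1.18 and 1.17) and for Kdm1a in mouse 3 (3.08 and 3.07). Stmn2, Hes6 and Insm1 differed in direction between mice. A receptor UMI was found in 25 of the 68 cells with only Neurog1, 26 of the 44 with both, 53 of the 81 with only Gap43 and 36 of the 91 with neither. These counts are at full depth, pooled over mice, in classes whose median depth differed. Counted alike, 34.2% of HBC2 (186 of 544) and 31.0% of sustentacular cells (104 of 336) held a receptor UMI. Omp was at 0.326 ± 0.328 in the cells with only Neurog1 and 2.86 ± 2.27 in those with only Gap43, in ranges that overlapped. Its part in the class differences was not tested.

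**Figure D5:**
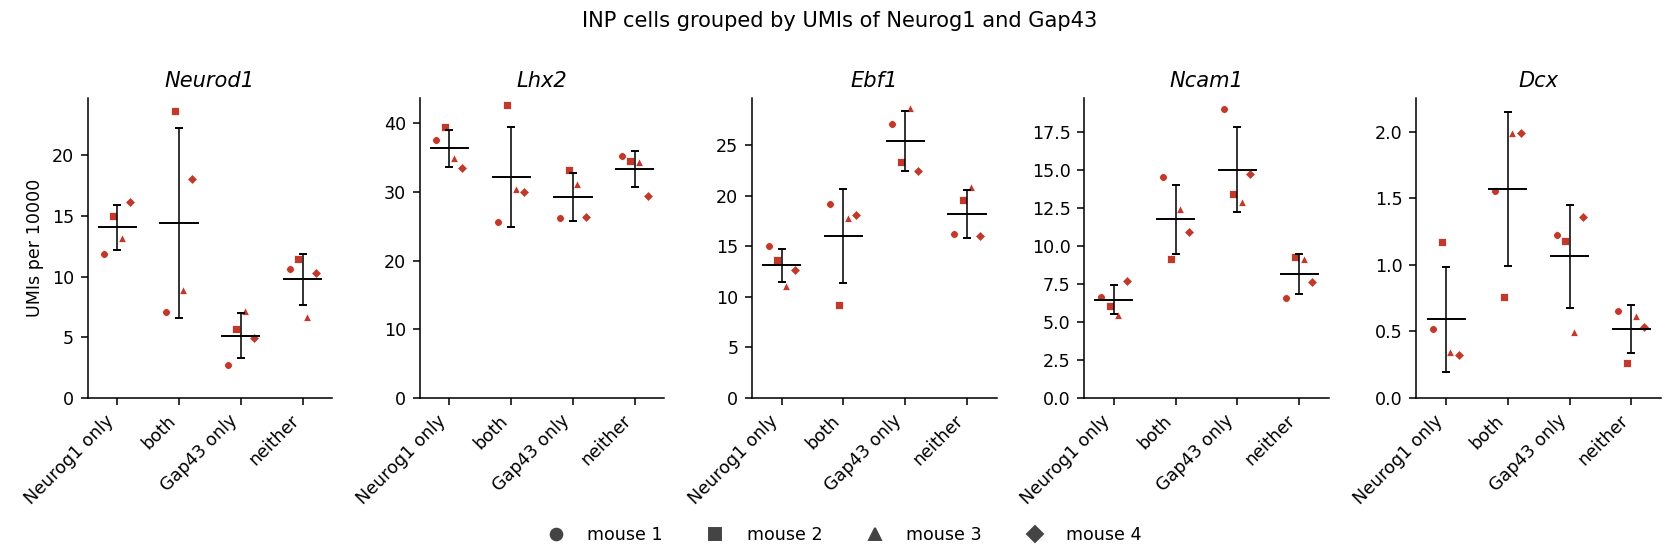
Levels of 5 genes (y axis, UMIs per 10000) in INP with a UMI of Neurog1 only, of both, of Gap43 only and of neither (x axis), with 1 point per mouse and the mean and SD over mice. Neurod1 and Lhx2 are higher in the cells with only Neurog1 than in those with only Gap43, Ebf1 and Ncam1 are lower there, and Dcx overlaps.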

How the data were processed

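Cells of the main olfactory epithelium of 4 mice were profiled by droplet sequencing. The submitters' processing notes name Cell Ranger 6.0.1 and GRCm38, and the deposited files hold raw UMI counts per gene and barcode and a cell annotation. The authors first removed clusters of blood, immune and damaged cells, then kept cells with more than 1000 genes and under 10% mitochondrial UMIs and clustered them again, and the deposited cell type names were used as given. The members and the gene lists were chosen with earlier results of these data known.

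UMI counts of the retained cells were summed per mouse and type. The 12 sums of GBC, INP and iOSN1 were fitted in edgeR 4.0.16 (R 4.3.3; TMM, filterByExpr, quasi-likelihood test, mouse as a block, Benjamini-Hochberg over 9170 genes, threshold 0.05). The 1429 receptor genes were left out. The procedure was also run on simulated counts. These had no mouse effect and far fewer changed genes than were called here, so they do not test the block or a change this broad. SE is the log2 change divided by the square root of F. The 3 sums of a mouse come from 1 animal and library, and their deviations from the type means correlated by -0.0133 to 0.109.

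Named genes were members of the gene lists, the 10 with the largest log2 change in each direction against each neighbour, and the 15 highest peaks and 5 lowest troughs in INP by the smaller of both changes. All but the list members were called, moved alike in 4 of 4 mice and had at least 1 UMI per 10000 in the higher type. Some genes that this rule selects are not reported here. Doublets were scored with Scrublet (scanpy 1.11.5), whose own limit called 7 cells in mouse 2, so the highest 4% of scores were left out as an alternative. Other alternatives were DESeq2 1.42.0, its size factors, no filter, no block, 2 types in the fit, 1 mouse left out, thinning to 5000 UMIs and at least 2000 genes per cell. Libraries held 23157467 to 32382702 UMIs, and INP sums 183378 to 917905.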

Additional observations from a re-analysis of the deposited data

Results flagged for a closer look

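Among 149 sets of 4 mouse values, 15 had 1 mouse far from the other 3 (Dixon's test), and chance alone marks about 1 in 20. For 5 of the 15 (Rgs5, Hmmr, Upp1, Kif11 and Cldn5) the gene had 1 or 2 INP UMIs, all in 1 mouse, so the result was fixed by the low counts, and the 15 are not read as an excess. Mouse 2 had the lowest INP share of the 3 early types, 12.8%, where the others had 22.7 to 23.8%. Its INP also had the highest summed level of the 4 INP markers (113 UMIs per 10000, against 95.5 to 97.7) and of the immune cell markers (1.04, against at most 0.0909). The gland and glia markers were lowest there (0, against 0.0327 to 0.0364). That flag was set by depth, since 1 UMI in its INP sum of 183378 UMIs would already exceed the other values. In the same mouse Lbr (0.654) and Mki67 (0.218, from few UMIs) were highest.

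Mouse 4 had the highest INP level of the mature OSN markers (11.3 UMIs per 10000, against 4.50 to 5.45) and of the odorant transduction list (40.7, against 29.3 to 30.9), and 6 of the 11 INP with 10 or more Omp UMIs came from it. Rgs5 was found in mouse 4 only (0.0364).

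In mouse 1 the iOSN1 cells summed to 2024746 UMIs, more than in any other mouse, and Hmgb2 was highest in INP (3.22). Hmmr, Upp1, Kif11 and Cldn5 each had their single INP UMI in mouse 1 (0.0109 UMIs per 10000). No cause of these differences was tested.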

How the results depend on the processing

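Of 2506 values of the genes named above recomputed under 12 alternatives, 2425 kept their direction and their side of the threshold, 35 lost their call, 22 gained one and 24 changed sign. The sign changes came from 14 differences, of which 0 were called in the fit reported above, and the cause was not tested. Of these, Top2a against iOSN1 was called in 5 alternatives, with adjusted p = 0.0119 without the filter, 0.0402 without the highest doublet scores and 0.00444, 0.0357 and 0.0452 without mouse 2, 3 or 4, and Nqo1 against GBC was called without mouse 4 (adjusted p = 0.00826). Leaving out 1 mouse gave log2 changes against GBC of -0.072 to 0.0524 for Ezh2, -0.095 to 0.39 for Gadd45g, -0.0719 to 0.48 for Mfng and -1.59 to 0.17 for Nqo1. Against iOSN1 it gave -0.00905 to 0.10 for Gng8, -0.11 to 0.00482 for Hmgb2, -3.21 to 0.29 for Hmmr, -1.32 to 0.15 for Notch2, -2.26 to 0.85 for Rgs5, -0.21 to 1.64 for Top2a and -0.10 to 0.0705 for Tubb2b. Without the highest doublet scores the log2 change against GBC was -0.0284 for Cdkn1b, -0.16 for Mfng and 0.51 for Nqo1. Thinned to 5000 UMIs it was -0.29 for Cdkn1b, -0.0316 for Dnmt3a and -0.11 for Gadd45g, and 0.0729 for Tubb2b against iOSN1. Tubb2b was at 0.0239 and Hmgb2 at 0.0064 with 2 types in the fit, and Tubb2b at 0.0632 in cells of at least 2000 genes. Ezh2 was at 0.0751 without the filter, and Notch2 and Sparc against iOSN1 were at 1.09 with DESeq2.

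Thinning each cell to 5000 UMIs, which leaves fewer cells and UMIs, lowered the genes called from 4266 to 2334 against GBC, from 4308 to 2734 against iOSN1 and from 3249 to 1882 against their mean. The genes tested fell as well, from 9170 to 6112, so these counts do not rest on the same set of genes. Leaving out 1 mouse gave 3270 to 4398, 3374 to 4283 and 2420 to 3137, with 8392 to 10013 genes tested. Without the mouse as a block the counts were 4304, 4312 and 3247, and among the named genes the block changed only the calls of Gadd45b and Gng13 against GBC. With 1 mouse left out, the INP share was 1.61 to 2.02% of retained cells and 19.7 to 23.3% of the 3 types, the share with a receptor UMI 34.2 to 40.4%, with 2 or more receptors 14.9 to 16.1%, with Mki67 or Top2a 6.26 to 6.73% and with only Neurog1 22.7 to 28.1%.

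Shares of cells depended on depth. Without thinning, 47.8% of INP held a receptor UMI, 19.2% held 2 or more receptors and 10.1% held Mki67 or Top2a. With 2 UMIs asked for detection these were 9.07%, 0% and 0.991%, and at 3000 UMIs 10.2% held 2 or more receptors. Taken as a mean over cells, the INP minus GBC difference was -3426 UMIs. The 38 INP of mouse 2, with the lowest median UMIs, limit what can be seen of low genes there.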
